A study of Rattus norvegicus with 12 samples.

Results

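The genes described here are 8 genes of insulin signalling and insulin-like growth factor (IGF) binding: the binding protein genes Igfbp1, Igfbp2 and Igfbp4, the insulin receptor substrate genes Irs1 and Irs2, the insulin receptor gene Insr, the transcription factor gene Foxo1 and the kinase subunit gene Pik3r1. They were chosen by name with earlier results of these data known, so their counts beside shares of all probes are descriptions only. Among the 35581 gene names on the array they are read by 12 of its 41012 probes, with Foxo1 listed under its older symbol Foxo1a. The samples were primary hepatocytes of Sprague-Dawley rats aged 11 weeks, cultured with serum and then without it, and the strain and age were the same in all groups. The 4 groups of 3 arrays were female hepatocytes given 100 nM dexamethasone for 6 h, female hepatocytes given vehicle (0.01% ethanol) for 6 h, male hepatocytes given the same dexamethasone treatment and male hepatocytes given the same vehicle. Dexamethasone is a synthetic glucocorticoid, and the comparisons ask what it changes in each sex and whether the sexes differ. The labels do not state whether replicates came from separate animals or cultures, so the p-values rest on a spread between arrays that may be technical only.

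Insulin binds its receptor, a tyrosine kinase, which phosphorylates the insulin receptor substrates IRS1 and IRS2. These dock phosphoinositide 3-kinase through its regulatory subunit p85 alpha, the product of Pik3r1, and the kinase AKT then acts on targets such as FOXO1, which it keeps out of the nucleus. In liver, FOXO1 acts on genes of glucose production and on Igfbp1. The IGF binding proteins are secreted and hold IGFs in the circulation and tissues, and Igfbp1 is known as a liver gene that insulin represses and glucocorticoids induce.

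The 250 bases before and 50 bases after the start of Igfbp1 are shown because this gene had the largest dexamethasone difference of the genes tested, and those of Insr because its difference was the smallest in both sexes. Both are from RefSeq on build GRCr8, which matched 7 of the 8 genes, Irs2 being the one without an entry. Igfbp1 lies at chr14:86261027-86261326 on the plus strand, and capitals mark CAAAACA, the core of the insulin response element. Insr lies at chr12:6128754-6129053 on the minus strand, and capitals mark TGTTTAC, the reverse complement of the FOXO core GTAAACA.
Igfbp1: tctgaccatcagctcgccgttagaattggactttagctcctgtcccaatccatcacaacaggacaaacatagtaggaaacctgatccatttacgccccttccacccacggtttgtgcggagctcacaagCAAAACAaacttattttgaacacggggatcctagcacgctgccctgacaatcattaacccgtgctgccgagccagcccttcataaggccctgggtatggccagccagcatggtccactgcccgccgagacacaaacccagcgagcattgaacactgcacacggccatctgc
Insr: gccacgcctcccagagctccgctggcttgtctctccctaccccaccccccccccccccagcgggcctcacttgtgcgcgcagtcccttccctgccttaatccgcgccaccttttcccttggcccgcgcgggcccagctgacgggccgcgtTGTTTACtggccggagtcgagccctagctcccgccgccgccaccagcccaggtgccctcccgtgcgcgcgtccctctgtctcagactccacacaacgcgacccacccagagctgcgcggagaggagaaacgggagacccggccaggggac

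On both strands, CAAAACA was found in Igfbp1 alone among the 7, with its first base 121 bases before the start, and in 6.28% of 33469 promoters of the same length. GTAAACA was found in Insr alone, 100 bases before the start, and in 3.78% of all promoters. TGTTCT, the hexamer that a single glucocorticoid receptor binds, was in 0 of the 7 and in 20.68% of all. The palindrome of AGAACA, 3 free bases and TGTTCT, which contains that hexamer, was in 0 of the 7 and in 5 promoters in all. These are matches of letters in a short window and say nothing of binding.

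The array reads each gene through probes of 60 bases, and the following are shown because the results for Irs2, Igfbp4, Igfbp2, Foxo1 and Pik3r1 were read from them. Positions are on build rn3, as in the files. The Irs2 probes A_44_P503503 and A_44_P400393 lie at chr16:83368548-83368607 and chr16:83367721-83367780, both on the plus strand. The Igfbp4 probe A_44_P515317 lies at chr10:87843934-87843993 (plus) and the Igfbp2 probe at chr9:72114139-72114198 (plus). The Foxo1 probe lies at chr2:141151703-141151762 (plus) and the Pik3r1 probe at chr2:32526788-32526847 (minus).
Irs2 (A_44_P503503): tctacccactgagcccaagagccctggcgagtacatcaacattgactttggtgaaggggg
Irs2 (A_44_P400393): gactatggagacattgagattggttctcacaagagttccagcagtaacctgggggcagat
Igfbp4 (A_44_P515317): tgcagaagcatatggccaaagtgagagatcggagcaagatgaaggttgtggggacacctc
Igfbp2: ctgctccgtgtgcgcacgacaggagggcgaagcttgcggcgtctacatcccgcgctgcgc
Foxo1: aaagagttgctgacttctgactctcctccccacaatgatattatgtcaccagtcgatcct
Pik3r1: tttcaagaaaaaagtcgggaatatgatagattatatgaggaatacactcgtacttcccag

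The other probes are given by position: Igfbp1 at chr14:87973881-87973940 (plus), the brighter Igfbp4 probe at chr10:87848583-87848642 (plus), the brightest Irs2 probe at chr16:83389667-83389726 (plus) and a further Irs2 probe at chr16:83369128-83369187 (plus). Insr was read at chr12:3087143-3087201 (plus) and Irs1 at chr9:81769104-81769163 (minus). The Insr promoter window shown above lies on the minus strand of build GRCr8, and why this strand differs from that of the probe was not examined. Where a gene had several probes, the one with the highest mean signal is its main probe.

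Sex was taken from the sample titles, because the gender entry gives male even for the 6 samples titled female. Obp3, a gene known from male rat liver, had levels of 2.82 to 4.14 on the 6 male arrays and was below background on all 6 female arrays. A level here is the log2 signal relative to the 75th percentile of its array, so 0 is that percentile and 1 unit is a doubling; levels of different probes are not set against each other. The arrays lay on 3 slides of 4, and a slide was also a scan. Slide 1 carried male dexamethasone replicate 1 with all 3 male vehicle arrays. On slide 2 lay replicates 2 and 3 of male dexamethasone and, from the female vehicle group, replicates 1 and 2. Slide 3 carried all 3 female dexamethasone arrays with female vehicle replicate 3. On slide 1, 45.8 to 66.5% of probes were well above background, against 72.4 to 80.4% on the others. All 10 hepatocyte markers were well above background on every array, and so were 8 or 9 of 9 measured Kupffer cell markers in each group. The summed Kupffer level ranged from 5.78 to 6.79 under dexamethasone and 5.48 to 6.47 in vehicle in females, and from 5.63 to 6.69 and 5.39 to 6.43 in males, and none of the 9 passed the limma test for dexamethasone in either sex (at an unadjusted p under 0.05, 0 in females and 1 in males). Of 8 measured stellate cell and fibroblast markers, 1 was lower with dexamethasone in females (median difference -0.86) and 0 in males (0.03). In vehicle 5 were higher in female than in male hepatocytes, against 6.8% of all probes. Of the 8, Lrat and Pdgfrb were below background on all male vehicle arrays. The summed level of the 8 ranged from 6.03 to 6.73 under dexamethasone and 6.32 to 6.87 in vehicle in females. In males it ranged from 6.15 to 6.43 and 6.41 to 6.74. Timp1, with group means of 6.26 to 6.51, made up most of this sum, and the next highest group mean was 1.90 (Col1a2). The summed hepatocyte markers ranged from 10.18 to 10.37 under dexamethasone and 9.91 to 10.34 in vehicle in females, and from 10.23 to 10.43 and 10.56 to 10.83 in males. With dexamethasone 2 of the 10 were higher and 0 lower in females, against 2.72% and 1.07% of all probes. In males 2 were higher and 1 lower, against 5.45% and 4.75%. Single markers went both ways: in males Fgb averaged 8.4 under dexamethasone and 9.11 in vehicle, and Tat 4.22 and 1.39. The part of these shifts in the results was not tested, and in such bulk RNA fewer cells of a type and less RNA per cell cannot be told apart.

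Of the 8 genes, 7 had a probe that passed the filter on dim probes and were tested with limma, with Benjamini-Hochberg adjustment over all 30979 probes kept. Irs1 did not pass. With dexamethasone 2 of the 7, Igfbp1 and Irs2, rose in females and the same 2 in males, and 0 fell in either sex. At an unadjusted p under 0.05, 4 of the 7 had a positive difference in females and 5 in males, and 0 a negative one in either. Over all probes 16.9% and 27% had such a p in either direction. The 5 in males include Pik3r1, whose male vehicle arrays were all below background, so its direction is not read. Over all probes tested, 2.72% were higher and 1.07% lower with dexamethasone in females, and 5.45% were higher and 4.75% lower in males. In either direction this was 3.79% in females and 10.2% in males. The order of the sexes reversed in fits of only the groups compared, with 9.91% in females and 1.08% in males. The median difference of the 7 genes was 0.81 in females and 0.64 in males, with the dim male probe of Pik3r1 taken as no change (0.68 as measured), against -0.04 and -0.05 over all probes. The arrays of the 2 treatments did not overlap for 4 of the 7 genes in females (Igfbp1, Igfbp4, Irs2 and Foxo1), against 33.4% of all probes, and for 3 of 6 in males (Igfbp1, Irs2 and Foxo1), against 25.1%. Probes with a group below background on all its arrays are left out of these counts, which takes out Pik3r1 in males. With slide as a term, none of the 7 main probes passed in either sex, against 0.93% of all probes in females and 1.93% in males.

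**Figure D1:**
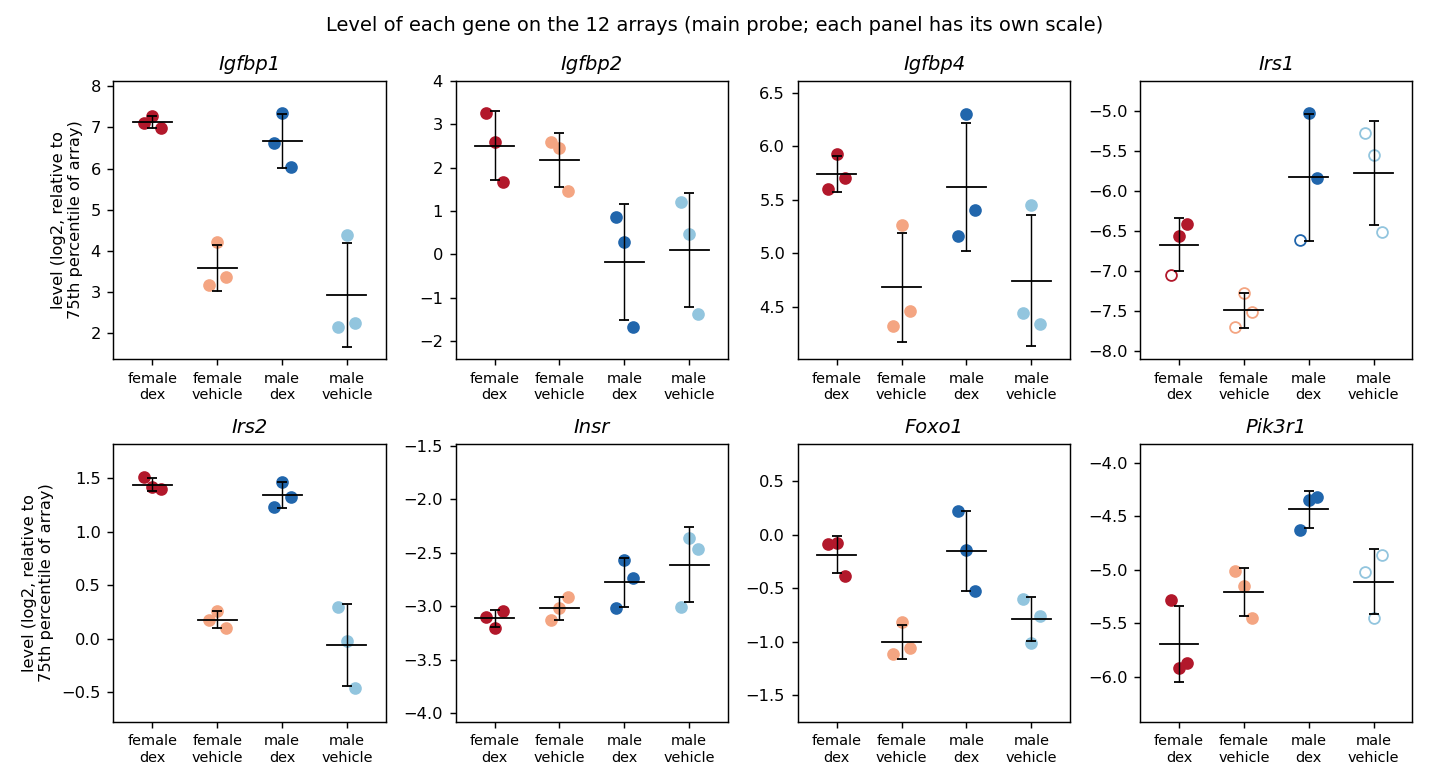
Level of each of the 8 genes on the 12 arrays (log2, relative to the array's 75th percentile), by group; dex is dexamethasone, points are single arrays, open where not well above background, and bars give the mean and SD of 3. Igfbp1 and Irs2 sit higher under dexamethasone in both sexes. Igfbp2 sits higher on the female than on the male arrays, which share no slide under the same treatment, and this difference did not pass the threshold.

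Igfbp1 is the binding protein that liver secretes with fasting and stress hormones. Its levels were 7.12, 7.28 and 6.99 in female dexamethasone hepatocytes, against 3.16, 4.22 and 3.36 in female vehicle hepatocytes. In males they were 6.63, 7.35 and 6.04 under dexamethasone, against 2.14, 4.39 and 2.24 in vehicle. Every dexamethasone array stood above every vehicle array, and the vehicle groups spread more widely than the dexamethasone groups of the same sex. The difference was 3.55 ± 0.55 in females (11.7-fold higher, limma adjusted p = 0.0072; ± is the standard error, n = 3 each). It was 3.75 ± 0.55 in males (13.5-fold higher, limma adjusted p = 0.0032). The response differed between females and males by -0.20, with a 95% interval of -1.93 to 1.52 (limma adjusted p = 0.96). Within slide 3 the female difference was 3.77 (3 dexamethasone arrays and 1 vehicle array), and within slide 1 the male difference was 3.71 (1 and 3 arrays). With slide as a term in the fit, these were the estimates too, with limma adjusted p = 0.087 and 0.069.

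Igfbp4, a binding protein that mostly restrains IGF action, was read by 2 probes. Its main probe gave 5.60, 5.93 and 5.70 in female dexamethasone hepatocytes, against 4.32, 5.26 and 4.46 in female vehicle hepatocytes. In males it gave 5.16, 6.30 and 5.40 under dexamethasone, against 4.44, 5.45 and 4.34 in vehicle. The female groups did not overlap, whereas in males the highest vehicle array lay above 2 of the 3 dexamethasone arrays. The difference was 1.07 ± 0.37 in females (limma adjusted p = 0.16) and 0.88 ± 0.37 in males (limma adjusted p = 0.16), neither past the threshold of 0.05. Same-numbered samples within a sex deviated together, and with the replicate number within sex as a block both passed (limma adjusted p = 0.019 in females and 0.020 in males). The paired differences were 1.28, 0.68 and 1.24 in females and 0.72, 0.85 and 1.06 in males for replicates 1, 2 and 3, all positive. The second probe, A_44_P515317, gave 1.29 ± 0.41 in females (limma adjusted p = 0.13) and 1.28 ± 0.41 in males (limma adjusted p = 0.077). With the block it gave limma adjusted p = 0.019 in females and 0.012 in males. Over the 12 arrays the 2 probes had a Pearson r of 0.94. Within slide 1 the male difference of the main probe was 0.42, and within slide 3 the female one was 1.29.

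Igfbp2 is a binding protein made in liver and known as a gene that insulin lowers. It had levels of 3.26, 2.60 and 1.67 in female dexamethasone hepatocytes, against 2.60, 2.46 and 1.47 in female vehicle hepatocytes. Male levels were 0.87, 0.28 and -1.68 under dexamethasone, against 1.20, 0.47 and -1.37 in vehicle. The spread between replicates was wide in all groups, while the treatments stayed close within each replicate number. The dexamethasone difference was 0.33 ± 0.76 in females (95% interval -1.34 to 2.01, limma adjusted p = 0.92) and -0.28 ± 0.76 in males (-1.95 to 1.39, limma adjusted p = 0.85). The paired differences were 0.67, 0.14 and 0.20 in females and -0.34, -0.19 and -0.31 in males for replicates 1, 2 and 3. With the block within sex neither passed (limma adjusted p = 0.24 and 0.23), and the difference between the sexes' responses was 0.61 with limma adjusted p = 0.90 unblocked and 0.23 blocked.

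**Figure D2:**
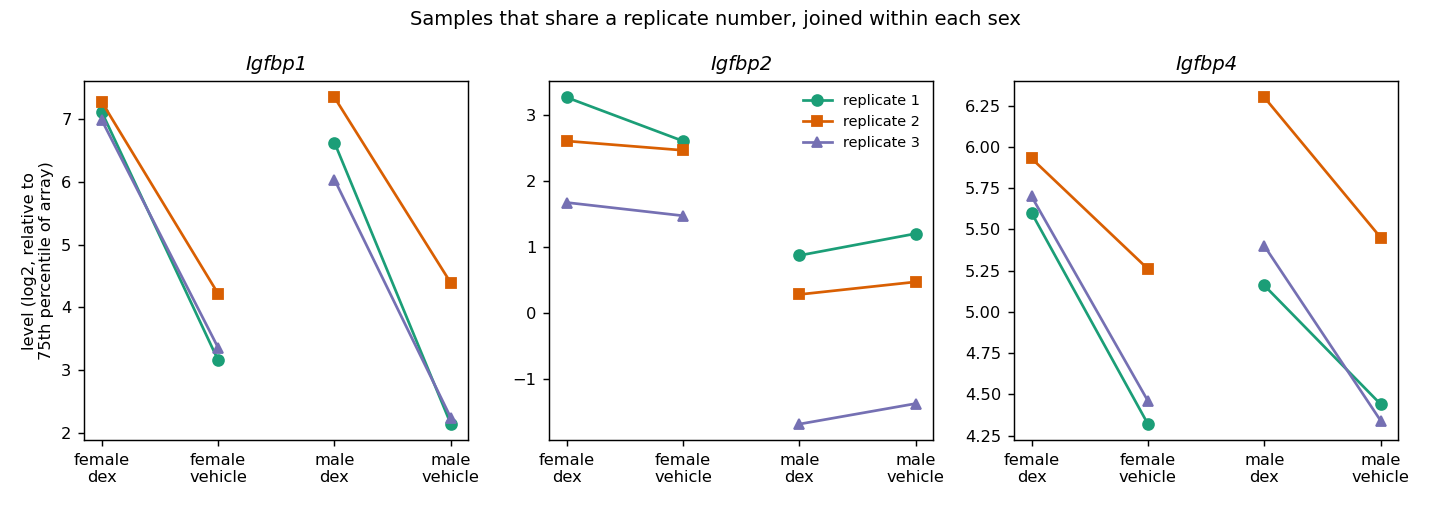
Levels of Igfbp1, Igfbp2 and Igfbp4 (log2, relative to the array's 75th percentile) with same-numbered samples joined within each sex. For Igfbp1 and Igfbp4 replicate 2 is highest in all 4 groups, and for Igfbp2 replicate 1 is highest and replicate 3 lowest in all 4.

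The binding protein genes shared a feature across groups. Igfbp1 and Igfbp4 had replicate 2 as the highest array in all 4 groups, and Igfbp2 had replicate 1 as the highest and replicate 3 as the lowest in all 4. The same replicate was highest in all 4 groups for 3 of the 7 genes, against 12.55% of 30741 probes, and lowest in all 4 for 1 of the 7, against 11.11%. Replicate numbers come from the sample titles, which do not say what a number stands for across the sexes.

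Irs2 passes the signal from the insulin receptor to phosphoinositide 3-kinase and is known from mice as the main substrate of this kind in liver during fasting. The main probe gave 1.51, 1.42 and 1.40 in female dexamethasone hepatocytes, against 0.18, 0.26 and 0.10 in female vehicle hepatocytes. In males it gave 1.23, 1.47 and 1.33 under dexamethasone, against 0.30, -0.02 and -0.46 in vehicle. The groups were well apart in both sexes, and the dexamethasone levels of the sexes overlapped. The difference was 1.26 ± 0.19 in females (2.39-fold higher, limma adjusted p = 0.0054) and 1.40 ± 0.19 in males (2.65-fold higher, limma adjusted p = 0.0019). Between the sexes the response differed by -0.15, with a 95% interval of -0.73 to 0.44 (limma adjusted p = 0.90). With slide as a term the differences were 1.34 in females and 1.29 in males (limma adjusted p = 0.069 and 0.060). A fit of the male arrays alone gave limma adjusted p = 0.055.

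The other 3 Irs2 probes showed differences of the same sign. Probe A_44_P400393, shown above, gave 0.92 ± 0.15 in females (limma adjusted p = 0.0089). In males no vehicle array was well above background, so its rise there was at least 1.05-fold (limma adjusted p = 0.0056). Under normexp background correction its difference was 0.46 in females and -0.09 in males, and both calls were lost (limma adjusted p = 0.12 and 0.67). Probe A_44_P503503 gave 1.01 ± 0.24 in females (limma adjusted p = 0.046), and in males, again dim on all vehicle arrays, the rise was at least 1.75-fold (limma adjusted p = 0.0019). With normexp its male difference was 0.36, which did not pass (limma adjusted p = 0.10), and with slide as a term it was 1.95, which did (limma adjusted p = 0.043). Probe A_44_P257518 gave 0.82 ± 0.25 in females, which did not pass (limma adjusted p = 0.11), and 1.30 ± 0.25 in males, which did (limma adjusted p = 0.011). It was well above background on 1 of the 3 male vehicle arrays, and with normexp its male difference was 0.24 (limma adjusted p = 0.22). Over the 12 arrays the probes correlated pairwise with a Pearson r of 0.770 to 0.887, and they share the arrays and their scaling.

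Irs1, the other main substrate of the insulin receptor, was near or below background throughout and was not tested. Its probe, printed on 10 spots, was well above background on 4 arrays, all of them dexamethasone arrays, namely replicates 2 and 3 of each sex. Levels were -7.05, -6.56 and -6.42 in female dexamethasone hepatocytes, against -7.70, -7.27 and -7.51 in female vehicle hepatocytes. In males they were -6.62, -5.03 and -5.84 under dexamethasone, against -5.28, -5.55 and -6.51 in vehicle. Levels below background have no order, so no direction is read in either sex. In males, slide 1, which held all vehicle arrays, also detected fewer probes than the other slides.

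Insr encodes the receptor that all these steps depend on. Its levels were -3.10, -3.20 and -3.04 in female dexamethasone hepatocytes, against -3.13, -3.02 and -2.91 in female vehicle hepatocytes. Male levels were -3.02, -2.57 and -2.74 under dexamethasone, against -3.01, -2.36 and -2.46 in vehicle. The treatments overlapped in both sexes. The difference was -0.10 ± 0.19 in females (95% interval -0.52 to 0.33, limma adjusted p = 0.90) and -0.17 ± 0.19 in males (-0.59 to 0.26, limma adjusted p = 0.63).

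Foxo1 encodes the transcription factor that insulin signalling keeps inactive. Levels were -0.09, -0.08 and -0.39 in female dexamethasone hepatocytes, against -1.12, -0.82 and -1.06 in female vehicle hepatocytes. In males they were 0.22, -0.14 and -0.53 under dexamethasone, against -0.60, -1.01 and -0.76 in vehicle. The groups did not overlap in either sex, though in males the closest arrays were at -0.53 under dexamethasone and -0.60 in vehicle. The difference was 0.81 ± 0.21 in females (limma adjusted p = 0.057) and 0.64 ± 0.21 in males (limma adjusted p = 0.075), neither past the threshold. With the replicate number within sex as a block it passed in both (limma adjusted p = 0.043 in females and 0.049 in males), with paired differences of 1.03, 0.74 and 0.67 in females and 0.82, 0.87 and 0.23 in males. With that block 4 of the 7 genes passed in each sex, namely Igfbp1, Igfbp4, Irs2 and Foxo1, all higher with dexamethasone, against 3.94% of all probes called higher in females and 7.52% in males. Under normexp background correction the Foxo1 difference was 0.72 in females and 0.23 in males (limma adjusted p = 0.12 and 0.45).

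**Figure D3:**
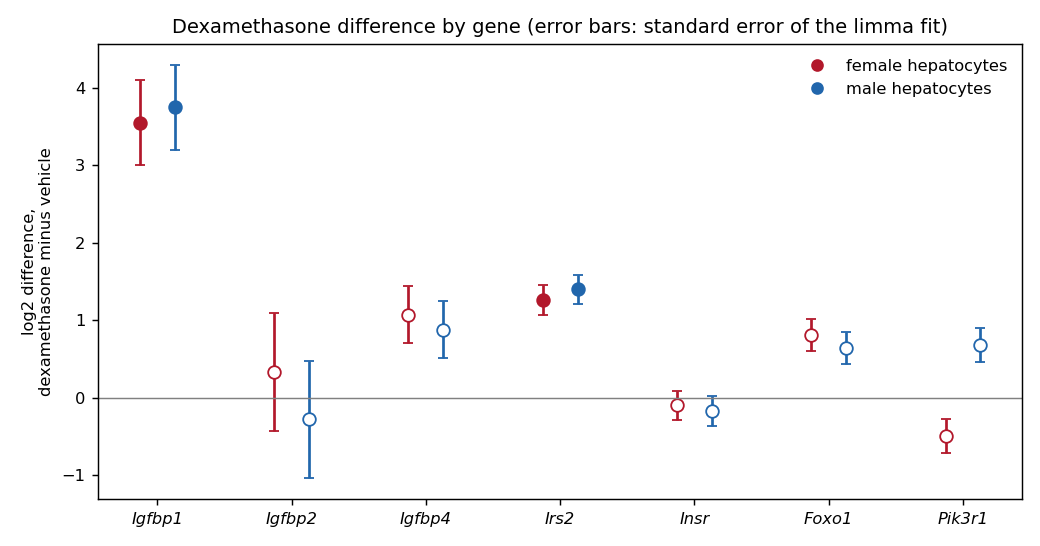
Log2 difference, dexamethasone minus vehicle, of the 7 genes tested, in female (red) and male (blue) hepatocytes; error bars are standard errors of the limma fit and filled points passed an adjusted p of 0.05. Igfbp1 and Irs2 are filled in both sexes and no other gene is in either; the male value of Pik3r1 is set against a vehicle group below background.

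Pik3r1 encodes p85 alpha, which binds the phosphorylated receptor substrates. Levels were -5.28, -5.92 and -5.87 in female dexamethasone hepatocytes, against -5.01, -5.15 and -5.45 in female vehicle hepatocytes. In males they were -4.63, -4.35 and -4.32 under dexamethasone, against -5.02, -5.45 and -4.86 in vehicle, where none of the 3 arrays was well above background. The female groups overlapped by 1 array. The difference was -0.49 ± 0.22 in females (limma adjusted p = 0.31). In males the vehicle level has only an upper bound, which lies above the mean dexamethasone level, so no fold and no order is given there (limma adjusted p = 0.081). The difference in response rests on the same group and its size is not read either (unadjusted p = 0.0037, limma adjusted p = 0.15). None of the 7 genes passed this limma test of a difference in response, which 0.107% of all probes did, and Pik3r1 alone had an unadjusted p under 0.05, against 11.8% of all probes. Under normexp background correction the male difference of Pik3r1 changed sign.

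Between the sexes under dexamethasone, 1 of the 7 genes passed, Pik3r1, which was lower in females, against 1.75% of all probes called lower and 1.26% called higher. Its female minus male difference was -1.26 ± 0.22 (2.39-fold lower in females, limma adjusted p = 0.016), and all 3 female arrays lay below all 3 male arrays. No slide held dexamethasone arrays of both sexes, and with slide as a term the difference was -0.99 (limma adjusted p = 0.50). The call was also lost under quantile normalization (-1.14, limma adjusted p = 0.21). Leaving out female dexamethasone replicate 2 or 3 or male dexamethasone replicate 2 or 3 ended it too, with adjusted p of up to 0.085. In vehicle, with the male side below background, Pik3r1 did not pass (limma adjusted p = 0.82) and no size is given. In vehicle none of the 7 genes passed, against 13.9% of all probes. In that limma comparison 1 of the 7, Igfbp2, had an unadjusted p under 0.05, against 30.1% of all probes.

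Of Igfbp1, Igfbp2 and Igfbp4, Igfbp2 had the largest difference between the sexes under each treatment. The female minus male difference was 2.69 ± 0.76 under dexamethasone (6.45-fold, limma adjusted p = 0.087) and 2.08 ± 0.76 in vehicle (4.22-fold, limma adjusted p = 0.093). All female arrays lay above all male arrays under each treatment, yet neither difference passed the threshold. No slide held arrays of both sexes under the same treatment, so each of these comparisons of the sexes is also one of slides. With slide as a term the Igfbp2 difference was 4.27 under dexamethasone and 4.0 in vehicle (limma adjusted p = 0.32 and 0.22). For Igfbp1 the female minus male difference was 0.46 ± 0.55 under dexamethasone and 0.66 ± 0.55 in vehicle, and for Igfbp4 it was 0.12 ± 0.37 and -0.07 ± 0.37, none past the threshold. For Insr it was -0.34 ± 0.19 under dexamethasone (limma adjusted p = 0.38) and -0.40 ± 0.19 in vehicle (limma adjusted p = 0.19), also short of it. For Irs2 the difference was 0.10 ± 0.19 and 0.24 ± 0.19, and for Foxo1 it was -0.04 ± 0.21 and -0.21 ± 0.21. The arrays of the sexes did not overlap for 3 of the 7 genes under dexamethasone (Igfbp2, Insr and Pik3r1) and for 1 of 6 in vehicle (Igfbp2), against 32.3% and 32.4% of all probes. Summed cholangiocyte markers, 7 of the 8 measured, ranged from 3.27 to 3.80 in female and 1.74 to 2.55 in male dexamethasone hepatocytes. In vehicle they ranged from 3.55 to 4.57 in female and 1.55 to 2.76 in male hepatocytes. The sum was higher on every female array. Single markers went both ways. Epcam averaged 0.83 in both female groups, against 1.66 in male dexamethasone and 1.87 in male vehicle hepatocytes. Of the 8, 0 passed between the sexes under dexamethasone in limma. In vehicle 1 was higher and 1 lower in females, against 6.8% and 7.14% of all probes. The part of these cells in the sex differences was not tested.

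The rest of the pathway was described by 4 lists holding 72 genes, of which 68 were measured. The lists too were chosen with earlier results of these data known, so their counts are descriptions. With dexamethasone 8 of the 68 rose and 0 fell in females, against 2.72% and 1.07% of all probes. In males 9 rose and 6 fell, against 5.45% and 4.75%. At an unadjusted p under 0.05 the limma counts were 13 higher and 5 lower in females, and 11 higher and 13 lower in males, against 16.9% and 27% of all probes in either direction. The median difference was -0.06 in females and -0.04 in males, near the medians of -0.04 and -0.05 over all probes. The genes that rose lay in the lists of brakes on insulin signalling and of liver genes under insulin or FOXO1 control. Of the calls in males, only those of Sesn1 and Klf15 held in the male arrays alone or with slide as a term. None of the 6 falls did (limma adjusted p of 0.13 to 0.27 and of 0.067 to 0.53).

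**Figure D4:**
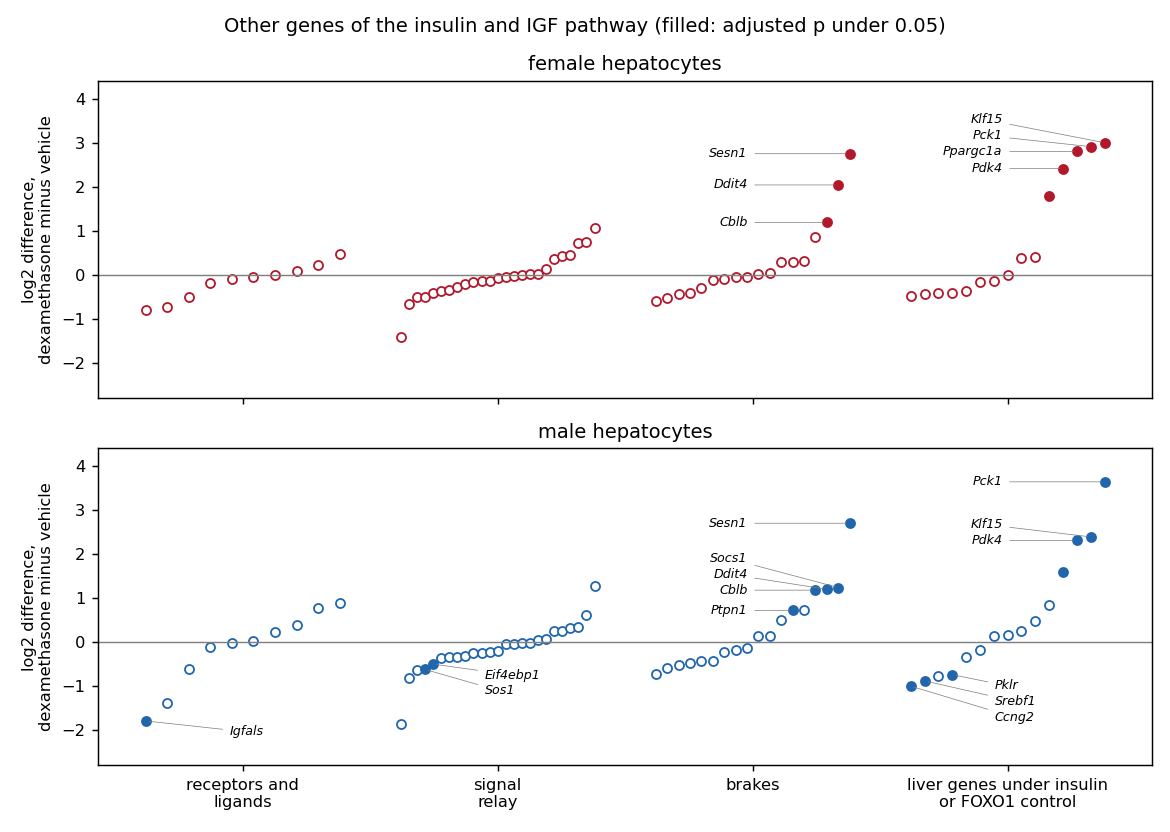
Log2 difference, dexamethasone minus vehicle, of the measured genes of the 4 pathway lists in female (top) and male (bottom) hepatocytes; each point is a gene, sorted within its list, filled points passed an adjusted p of 0.05, and those described in the text are named. Rises are in the brakes and in the liver genes, and no receptor, ligand or relay gene rose.

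Among IGF and insulin receptors and ligands, 10 of 12 genes were measured. Of these 0 passed in females and 1 in males, against 3.79% and 10.2% of all probes in either direction. Igfals, the acid-labile subunit that holds IGFs in a circulating complex, had levels of -0.24, -2.10 and -1.33 in male dexamethasone hepatocytes, against 1.63, -0.05 and 0.12 in male vehicle hepatocytes. It fell by 1.79 (SE 0.48, limma adjusted p = 0.040), and the call held in 3 of the 12 fits that left out 1 array, with the loss of male vehicle replicate 1, its highest array, among those that ended it. Igf1, the main liver growth factor of the family, differed by 0.48 in females and 0.23 in males (limma adjusted p = 0.26 and 0.52). Among relay genes 25 of 27 were measured, and the same shares over all probes apply. None passed in females and 2 fell in males, Sos1, an exchange factor for RAS, by 0.62 and Eif4ebp1, a repressor of translation, by 0.50 (limma adjusted p = 0.037 and 0.044). The Eif4ebp1 call was lost in each of the 12 fits that left out 1 array, and the Sos1 call held in 2 of them.

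Brakes on insulin signalling were all measured, 18 of 18. In females 3 were higher and 0 lower, against 2.72% and 1.07% of all probes. In males 5 were higher and 0 lower, against 5.45% and 4.75%. Sesn1, a sestrin that restrains mTORC1, gave 3.27, 2.99 and 2.69 in female dexamethasone hepatocytes, against 0.38, 0.31 and 0.00 in female vehicle hepatocytes. Its difference was 2.75 ± 0.30 in females (limma adjusted p = 0.00088) and 2.70 ± 0.30 in males (limma adjusted p = 0.00084). Ddit4, another inhibitor of mTORC1, rose by 2.04 ± 0.23 in females and 1.20 ± 0.23 in males (limma adjusted p = 0.00099 and 0.0097). Cblb, a ubiquitin ligase, rose by 1.19 ± 0.19 and 1.18 ± 0.19 (limma adjusted p = 0.0088 and 0.0053). Socs1, a suppressor of cytokine signalling, was below background on all male vehicle arrays and rose at least 1.11-fold in males (limma adjusted p = 0.035). Under normexp background correction its call was lost (limma adjusted p = 0.91). The fifth gene in males, Ptpn1, a tyrosine phosphatase of the insulin receptor, was named after its values were seen and rose by 0.72 (limma adjusted p = 0.041). In females its difference was -0.60 (limma adjusted p = 0.13), and the female minus male difference in response was -1.32 (limma adjusted p = 0.082). The calls of Sesn1, Ddit4 and Cblb held in all 12 fits that left out 1 array in both sexes, that of Socs1 in 4 and that of Ptpn1 in 1.

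The 15 liver genes under insulin or FOXO1 control were all measured. In females 5 rose and 0 fell, against 2.72% and 1.07% of all probes. In males 4 rose and 3 fell, against 5.45% and 4.75%. Klf15, a transcription factor of amino acid and glucose metabolism, gave 4.32, 4.24 and 4.26 in female dexamethasone hepatocytes, against 0.89, 1.57 and 1.38 in female vehicle hepatocytes. It rose by 3.00 ± 0.25 in females and 2.39 ± 0.25 in males (limma adjusted p = 0.00017 and 0.00067). Pck1, a rate-limiting enzyme of gluconeogenesis, rose by 2.91 ± 0.62 in females and 3.64 ± 0.62 in males (limma adjusted p = 0.028 and 0.0064). Pdk4, which blocks entry of pyruvate into the citric acid cycle, rose by 2.41 ± 0.38 in females (limma adjusted p = 0.0080). In males, where it was below background in all vehicle arrays, it rose at least 1.20-fold (limma adjusted p = 0.0058). Under normexp background correction that male call was lost (limma adjusted p = 0.082). Ppargc1a, a coactivator of gluconeogenic genes, was below background on all female vehicle arrays and rose at least 2.55-fold in females (limma adjusted p = 0.018). It is counted among the 5 rises, but its probe passed the filter through the dexamethasone groups alone. The call was lost with quantile normalization and with normexp (limma adjusted p = 0.14 and 0.29).

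The falls in males were smaller. Ccng2, a cyclin known as a FOXO target, fell by 1.00, Srebf1, a transcription factor of lipid synthesis, by 0.88 and Pklr, the liver pyruvate kinase, by 0.74 (limma adjusted p = 0.047, 0.021 and 0.033). Leaving out 1 array kept the Srebf1 call in 9 of 12 fits, the Pklr call in 3 and the Ccng2 call in 1. The rises of Klf15 and Pdk4 held in all 12 in both sexes. The rise of Pck1 held in 12 in males and 7 in females, and that of Ppargc1a in females in 8. Between the sexes under dexamethasone, 1 of the 68 genes was higher in females and 1 lower, against 1.26% and 1.75% of all probes. Both were named after their values were seen: the binding protein gene Igfbp6 by 2.09 (limma adjusted p = 0.025) and Trib3, an inhibitor of AKT, by -0.98 (limma adjusted p = 0.033). Leaving out 1 array kept the Igfbp6 call in 8 of 12 fits and the Trib3 call in 6, with limma adjusted p of up to 0.10 and 0.11. With slide as a term neither passed (limma adjusted p = 0.72 and 0.29). In vehicle 6 of the 68 were higher and 9 lower in females than in males, against 6.8% and 7.14% of all probes. Among them the binding protein genes Igfbp6 and Igfbp3, named after their values were seen, differed by 2.12 and 2.01 (limma adjusted p = 0.0091 and 0.015), and neither passed with slide as a term (0.36 and 0.44). For the difference between the sexes in dexamethasone response, 0 of the 68 passed in limma, and 7 had an unadjusted p under 0.05, against 11.8% of all probes.

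The named genes with the most similar pattern over the 12 arrays were found by Pearson r among 8397 genes well above background on all arrays, or 8398 for Pik3r1. The values are descriptions, since the arrays share their treatments, slides and scaling. For Igfbp1 they were Depp1 (r = 0.984), Slc37a4, the glucose 6-phosphate transporter (0.979), and Akr1c14, a hydroxysteroid dehydrogenase (0.978). Depp1 averaged 7.11 under dexamethasone and 3.48 in vehicle in females, and 6.91 and 3.05 in males. For Irs2 they were the growth factor gene Nrtn (0.979), the tight junction gene Cldn1 (0.976) and Sesn1 (0.975).

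For Igfbp2 the most similar genes were Ghr, the growth hormone receptor (r = 0.940), Slc16a11 (0.933) and Atp2c1 (0.931). For Igfbp4 they were the liver transcription factor gene Cebpa (0.967), Ptk2b (0.949) and Pycard (0.949). For Foxo1 they were Foxp1, another forkhead factor (0.942), Siah2 (0.930) and Nedd4l (0.916). For Insr they were Fabp1, the liver fatty acid binding protein (0.978), Ddc (0.965) and Mettl7b (0.945), all with higher means in male than in female groups. Fabp1 averaged -1.27 in female and -0.02 in male dexamethasone hepatocytes, and -1.16 in female and 0.51 in male vehicle hepatocytes. Pik3r1 had the least similar neighbours, Prpf19 (0.845), Ate1 (0.820) and Stxbp4 (0.820).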

How the data were processed

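The deposited array files hold spot intensity values of Cy3-labelled RNA read by Agilent Feature Extraction 9.5.3.1, per the file headers (9.5 in the submitters' processing notes), and the processed signal is background-subtracted within each array and linear, with no scaling between arrays. The authors' deposited series table holds the same intensity values in 540216 of 540216 comparisons (relative tolerance 0.0001). Outlier spots were dropped, spots of a probe averaged as log2 values and each array's 75th percentile subtracted. Probes stayed in where some group had all 3 arrays well above background. The tests were run in limma 3.58.1 under R 4.3.3 (1 model of 4 group means on 12 arrays, eBayes, two-sided, Benjamini-Hochberg, threshold 0.05), and the code was tested on simulated data. This model takes 1 spread per probe for all groups, so a gene has the same standard error in both sexes. The spread was not equal, with a median SD between arrays of 0.16 in female dexamethasone and 0.39 in male vehicle hepatocytes. The share of probes called in each sex therefore depends on this choice and is not read as a sex difference. The number of arrays limits the precision.

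The 8 genes and the lists were chosen with earlier results of these data known. Named were all 8 genes, up to 3 rises and 3 falls per list in each dexamethasone comparison, and the 3 genes most correlated with each of the 8. Same-numbered samples within a sex deviated together, with correlations of 0.355 to 0.537 in females and 0.402 to 0.589 in males over 17471 probes, so the number was also used as a block within sex. Alternatives were median and quantile scaling, normexp background correction (offset 50), no filter, a filter on all 12 arrays, 1 probe per gene name, slide or replicate number as a block, only the groups compared, and leaving out each array. A gene of the lists is counted in them but not reported here. Protein motifs were not analysed here.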

Additional observations from a re-analysis of the deposited data

How the results depend on the processing

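The dexamethasone differences of Igfbp1 and Irs2 kept their sign under all settings run in both sexes. Leaving out each array gave 3.34 to 3.87 in females and 3.36 to 4.48 in males for Igfbp1, and 1.22 to 1.30 and 1.20 to 1.58 for Irs2, all past the threshold. Of the 7 genes, 2 passed in each sex, 0 with slide as a block and 4 with the replicate block within sex. In males 4 passed with no filter on dim probes (Foxo1 and Pik3r1 added), where 30.6% of all probes did, and 1 in a fit of the male arrays alone (Igfbp1). Leaving out each array gave 2 to 3 in each sex. For the difference in response 1 passed with no filter (Pik3r1), where 18.1% of all probes did, 0 with the replicate block and 0 in all fits without 1 array. For female minus male under dexamethasone the count of 1 became 0 with quantile normalization, slide as a block or the filter on all 12 arrays, which leaves Pik3r1 out. It became 2 (Igfbp2 and Pik3r1) with normexp, where 3.53% of all probes passed. The same 2 passed with the replicate number shared by all groups as a block, where 5.7% of all probes did. Leaving out each array gave 0 to 2. In vehicle the count of 0 became 3 with normexp (Igfbp2, Insr and Pik3r1), where 44.5% of all probes passed. It became 1 with that block (Igfbp2), where 18% of all probes did, and 0 to 1 on leaving out each array. Same-numbered samples across the sexes correlated at 0.229 to 0.3 under dexamethasone but 0.0373 to 0.177 in vehicle, so the numbers were not taken to pair the sexes. With this block Igfbp2 had limma adjusted p = 0.0018 under dexamethasone and 0.0026 in vehicle.

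Signs turned only for differences short of the threshold or read from dim probes. With slide as a block these were Igfbp2 in males (0.77), the difference in response of Igfbp1 (0.05), Irs2 (0.05) and Foxo1 (-0.14), and Foxo1 between the sexes (0.24 under dexamethasone, 0.38 in vehicle). With normexp they were Insr in females (0.03), Pik3r1 in males (-0.16) and Irs2 probe A_44_P400393 in males (-0.09). With quantile normalization they were female minus male in vehicle for Igfbp4 (0.06) and Pik3r1 (0.34). Leaving out 1 array turned the sign for Igfbp2 (-0.04 to 0.76 in females, -1.01 to 0.47 in males). It did so for the difference in response of Igfbp1 (-0.93 to 0.19), Igfbp2 (-0.14 to 1.35), Igfbp4 (-0.16 to 0.53), Irs2 (-0.33 to 0.06), Insr (-0.06 to 0.27) and Foxo1 (-0.02 to 0.35). Between the sexes it did so for Foxo1 under dexamethasone (-0.23 to 0.14), Igfbp4 (-0.11 to 0.46 under dexamethasone, -0.36 to 0.29 in vehicle) and Pik3r1 in vehicle (-0.26 to 0.03). The cause was not tested. In the lists, chosen after seeing the data as further counts, slide as a block called 2 brakes higher in each sex, of which 2 in females (Sesn1 and Ddit4) and 1 in males (Sesn1) were called without it, and Klf15 alone of the liver genes in both. Over all probes slide as a block called 0.646% higher in females and 0.82% in males. The fit of the male arrays alone called Sesn1 and Klf15 higher, against 0.691% of all probes. That of the female arrays alone called 13 of the 68 higher and 7 lower, against 5.96% and 3.95%. Of all list counts, 183 moved by over 1.5 times across the settings and 649 did not. Of the probes called for dexamethasone in males, 53.5% were higher, against 35.4% with array median scaling, 67.2% with quantile normalization and 24% with normexp, and in females 71.9% against 62.6%, 67.9% and 68%. The median over all probes in males was -0.05, -0.16 with array median scaling, 0.05 with quantile normalization and -0.24 with normexp. Dim signal limits Pik3r1, Irs1 and the dim Irs2 probes on the male vehicle arrays.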
